A study of Arabidopsis thaliana with 10 samples.

Results

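Whole Arabidopsis thaliana seedlings of the line DIF-OX2 grown on dexamethasone (Dex) were compared, across all genes, with wild-type Col-0 seedlings grown on the same medium. Both groups were 12 days old with 4 open true leaves and had grown on sucrose medium with 10 µM Dex and 0.1% ethanol in 16 h light and 8 h dark. The comparison rests on 4 of the 10 libraries of the series, 2 of DIF-OX2 on Dex and 2 of Col-0 on Dex. DIF-OX2 and Col-0 without Dex (12 days old, ethanol only, 2 libraries each) served to show how the line differed without Dex. The mutant dal-2 without Dex was 20 days old in replicate 1 and 21 in replicate 2. It entered the fit through the filter on low counts, the scaling and the estimate of the spread. The labels give neither the promoter of the transgene, nor the locus of DIF, nor how many insertion lines or pooled seedlings a library stands for, so induction itself was not checked here.

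DIF is the F-box subunit of a ubiquitin ligase of the SCF type, in which the F-box protein binds the substrate to be tagged for degradation. Its substrate in the title of the series is DIFFERENTIATION AND GREENING-LIKE, a nucleus-encoded factor of chloroplast development. Plastids that fail to develop are known to signal back to the nucleus, and this retrograde signalling changes genes of photosynthesis, stress and growth.

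Libraries held 8805568 and 14766519 counts in DIF-OX2 on Dex, against 11384722 and 16556322 in Col-0 on Dex. Nothing in the labels says that replicates were separate cultures, so the p-values cover no more than differences among these libraries, possibly technical ones. Counts were less concentrated in the induced line. The 20 genes with most counts took 6.47% and 5.34% of a library in DIF-OX2 on Dex, against 11.2% and 12.2% in Col-0 on Dex.

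Of 20681 genes tested, 4549 differed between DIF-OX2 on Dex and Col-0 on Dex (22.0%, edgeR quasi-likelihood test, Benjamini-Hochberg adjusted p of at most 0.05). Of these, 2408 were higher (11.6% of those tested) and 2141 lower (10.4%) in DIF-OX2. Counts of each list below are to be read beside these shares. Large changes lay on the higher side: 323 genes were at least 8-fold higher and 50 at least 8-fold lower in DIF-OX2. The median log2 fold change of all tested genes was 0.01. The number of calls depended on single libraries. It was 1343 without replicate 2 of DIF-OX2 on Dex, 1829 with replicate 1 of Col-0 on Dex left out, 1648 with its replicate 2 left out, and 7065 when the dal-2 libraries were left out, whose replicates differed with an SD of 0.745 on the log2 scale (0.355 to 0.439 in the other groups). Genes are therefore called kept below where they were called the same way in all 4 fits that leave out 1 library of the comparison and had a mean count of at least 50. There were 694 kept genes higher (3.36% of those tested) and 364 lower (1.76%) in DIF-OX2, and named genes come from these unless stated. Leaving out a library moved the count of called members by over 1.5 times in 50 of the 60 lists and families for replicate 2 of DIF-OX2 on Dex, 45 for replicate 2 and 41 for replicate 1 of Col-0 on Dex, and 19 for replicate 1 of DIF-OX2 on Dex. Genes called higher took 14.0% and 16.4% of all counts in DIF-OX2 on Dex, against 5.71% and 5.55% in Col-0 on Dex.

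**Figure D1:**
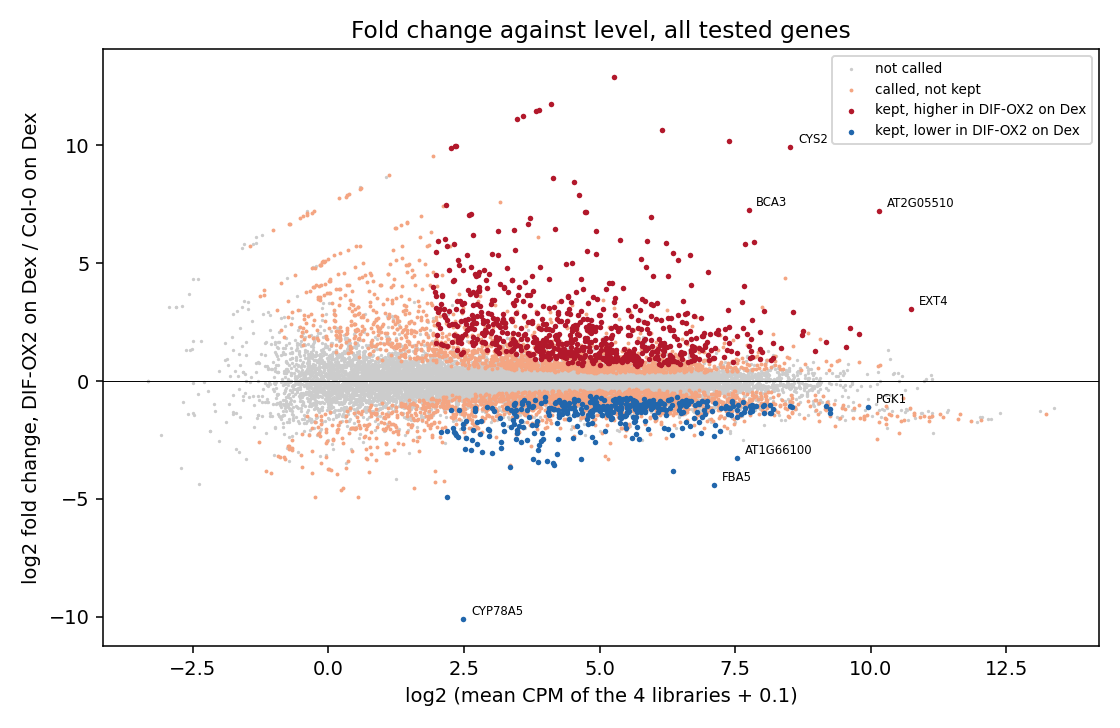
Log2 fold change (DIF-OX2 on Dex over Col-0 on Dex) against log2 mean CPM of the 4 libraries for all 20681 tested genes; each point is a gene. The 694 kept genes higher in DIF-OX2 reach further from 0 than the 364 kept genes lower, and CYP78A5 stands alone at the bottom; fitted values of genes with no count in a group depend on the prior count.

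The promoters of 3 defence genes that rose are shown because the W-box, the element bound by WRKY factors, can be read in them. Each stretch is the 250 bases before the annotated start (RefSeq TAIR10.1), 5′ to 3′ along the gene, with W-boxes in capitals. They lie at chr2:8329945-8330194 (minus strand, FRK1), chr4:12291382-12291631 (plus strand, WRKY29) and chr1:7396824-7397073 (minus strand, IGMT2).
FRK1: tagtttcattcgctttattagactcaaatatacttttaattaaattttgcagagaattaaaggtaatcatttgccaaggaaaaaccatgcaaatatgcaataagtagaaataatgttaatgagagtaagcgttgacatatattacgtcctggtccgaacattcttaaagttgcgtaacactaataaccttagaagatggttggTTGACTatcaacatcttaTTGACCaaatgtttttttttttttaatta
WRKY29: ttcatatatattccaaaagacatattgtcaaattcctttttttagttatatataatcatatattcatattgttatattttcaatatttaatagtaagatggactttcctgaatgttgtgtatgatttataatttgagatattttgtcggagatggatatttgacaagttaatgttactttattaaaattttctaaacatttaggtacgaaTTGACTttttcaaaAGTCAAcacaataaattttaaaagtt
IGMT2: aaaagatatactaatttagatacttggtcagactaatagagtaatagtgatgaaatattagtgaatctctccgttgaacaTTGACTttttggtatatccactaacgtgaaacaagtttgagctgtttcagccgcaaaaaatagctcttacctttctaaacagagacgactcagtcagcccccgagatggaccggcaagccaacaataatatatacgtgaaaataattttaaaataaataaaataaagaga
A W-box (TTGACC or TTGACT, either strand) stood in 37.6% of the 694 promoters of kept genes that rose and 20.3% of the 364 of kept genes that fell, beside 28.4% of 20579 promoters of tested genes. The site II element TGGGCC was in 7.35% of promoters of kept rises, 14.8% of kept falls and 16.1% of all. The I-box GATAAG was in 11.8%, 19.2% and 12.3%, in the same order. For the G-box CACGTG the shares were 4.9%, 8.24% and 7.19%. The GCC-box GCCGCC was found in 2.59%, 2.47% and 1.97%, and the evening element AAAATATCT in 2.31%, 2.2% and 2.43%. These are counts of letters in a window, on both strands, and were not tested.

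Pattern-triggered immunity is the first layer of plant defence, in which surface receptors recognise microbial molecules. Of its 24 tested genes 14 rose and 0 fell, with a median log2 fold change of 1.07, and 9 to 13 were called higher with 1 library left out. FRK1, a receptor-like kinase induced by flagellin, had 8.83 and 11.1 CPM in DIF-OX2 on Dex, against 0.285 and 0.272 CPM in Col-0 on Dex. Its log2 fold change was 5.12 (SE 0.74, edgeR adjusted p = 0.00287). RLP23, a receptor of a microbial peptide, reached 18.3 and 19.3 CPM in DIF-OX2 on Dex, against 0.664 and 0.681 CPM in Col-0 on Dex. RBOHD, the NADPH oxidase of the defence oxidative burst, averaged 230 CPM in DIF-OX2 on Dex, against 55.2 CPM in Col-0 on Dex. Both libraries of the induced line lay above both wild-type libraries for these genes. Groups overlapped for no called gene, and did not overlap for 14434 of the 20681 tested. WRKY22 was not called (log2 fold change -1.18, adjusted p = 0.17).

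WRKY factors are a plant transcription factor family that acts mainly in defence and senescence. Of 59 tested members 26 rose and 0 fell, with a median of 1.07, and their summed level was 1192 and 1327 CPM in DIF-OX2 on Dex, against 598 and 619 CPM in Col-0 on Dex. With 1 library left out 16 to 25 were higher. WRKY29 had 20.5 and 29.9 CPM in DIF-OX2 on Dex, against 3.04 and 3.75 CPM in Col-0 on Dex. WRKY48 had 44.3 and 44.1 CPM in the induced line, against 7.21 and 7.08 CPM in the wild type. Of 73 NAC factors, a family with many regulators of senescence and stress, 19 rose and 0 fell (median 0.47), among them NAC020 (log2 fold change 3.86, adjusted p = 0.00066) and NAC103 (3.28, adjusted p = 0.0028). NAC103 acts in the unfolded protein response. Of 82 MYB factors 13 rose (15.9%) and 9 fell (11%), beside 11.6% and 10.4% of all tested genes. MYB51, a regulator of indolic glucosinolates, rose by 2.26 and MYB16, a regulator of the cuticle, fell by 2.18 on the log2 scale. Of 36 tested AP2/ERF factors 7 rose and 1 fell. ERF15 was among the rises. With 1 library left out, the fits called 12 to 17 higher and 0 lower NAC factors, 5 to 8 higher and 3 to 7 lower MYB factors and 1 to 5 higher and 0 lower AP2/ERF factors.

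Receptor families differed in their share of calls. Of 32 cysteine-rich receptor-like kinases 15 rose and 1 fell, with a median of 0.84. CRK13 had 16.4 and 13.4 CPM in DIF-OX2 on Dex, against 0.474 and 0.749 CPM in Col-0 on Dex. CRK14 rose by 3.27 on the log2 scale (2.67 with wild-type replicate 1 left out, 4.67 with replicate 2 left out). The 6 neighbouring tested genes CRK11, CRK12, CRK13, AT4G23215, CRK14 and CRK15 (chromosome 4, 12140899 to 12160279) were all called higher. This was the longest of 16 such runs of at least 4 genes, against 7 runs of genes called lower. How many runs the shares called among all tested genes would give was not tested. The cysteine-rich receptor-like kinases are similar in sequence, so their counts may share reads. Of 91 TIR-NBS-LRR genes, which encode intracellular immune receptors, 16 rose (17.6%) and 3 fell (3.3%), with a median of 0.04. AT4G11340 of this class had 234 and 515 counts in DIF-OX2 on Dex and 0 counts in both Col-0 on Dex libraries, at least 245-fold higher with a floor of 3 counts over the group. AT5G45220 had 91.0 and 121 CPM in the induced line, against 3.13 and 2.72 CPM in the wild type, while AT1G56520 fell by 0.83 on the log2 scale. Of 31 CC-NBS-LRR genes 4 rose (12.9%) and 3 fell (9.68%), near the shares of all tested genes, with a median of -0.06, and AT1G63350 and ADR1 were the kept rises. Of 11 calmodulin-like genes 2 rose. The 4 fits that each lack a library called 12 higher and 0 to 1 lower cysteine-rich receptor-like kinases, 8 to 15 higher and 1 to 2 lower TIR-NBS-LRR genes and 2 to 3 higher and 0 to 4 lower CC-NBS-LRR genes.

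Indolic glucosinolates and camalexin are tryptophan-derived defence compounds. Of 24 tested genes 13 rose and 0 fell, the median was 1.16, and 5 to 9 were higher with 1 library left out. IGMT2, a methyltransferase of indolic glucosinolates, had 32.0 and 49.1 CPM in DIF-OX2 on Dex, against 3.32 and 4.63 CPM in Col-0 on Dex. GSTF6, a glutathione transferase of camalexin synthesis, had 170 and 236 CPM in the induced line, against 32.9 and 29.8 CPM in the wild type. CYP79B2, which makes the shared precursor indole-3-acetaldoxime, rose by 1.45 on the log2 scale. CYP79B3, its paralog, was not called (-0.68, adjusted p = 0.067). Tryptophan synthesis gave 4 of 15 higher and 1 lower, with TSB2 the kept gene. Aliphatic glucosinolates gave 3 of 23 higher (13%) and 1 lower (4.35%), beside 11.6% and 10.4% of all tested genes, with a median of 0.13. With only the 4 libraries of the comparison, 7 were called higher and 6 lower. Kept rises of this list were IMS2 and the transporter gene GTR2. Across the leave-out fits there were 1 to 2 higher and 0 to 1 lower tryptophan synthesis genes and 2 to 3 higher and 0 to 1 lower aliphatic glucosinolate genes.

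In families of detoxification and phenolic metabolism the share of members called ran from 22.2% to 38.2%, beside 22.0% of all tested genes. Glutathione S-transferases had 11 of 46 members higher and 2 lower, and GSTF7 had 132 and 210 CPM in DIF-OX2 on Dex, against 15.3 and 16.6 CPM in Col-0 on Dex. UDP-glycosyltransferases had 11 of 52 higher and 1 lower, with UGT85A2 and UGT72E1 kept. Class III peroxidases had 17 of 55 higher and 4 lower. PRX52 rose by 3.81 and AT5G64120 by 3.01, while AT5G15180 fell by 2.43 and AT2G38390 fell by 1.30 on the log2 scale. Of 36 ABC transporters of the G class 6 rose and 2 fell, with ABCG43 and ABCG42 kept. ABCG43 had a log2 fold change of 4.69, which was 5.604 with wild-type replicate 1 left out and 4.01 with replicate 2 left out. Of 17 phenylpropanoid and lignin genes 4 rose and 0 fell, and CCoAOMT1, a methyltransferase of lignin precursors, had 1016 and 1180 CPM in DIF-OX2 on Dex, against 401 and 409 CPM in Col-0 on Dex. Cytochromes P450 gave 30 of 170 higher and 22 lower (median -0.07), and CYP705A4 was a kept fall. Fits lacking 1 of the libraries gave 7 to 11 higher and 0 to 2 lower glutathione S-transferases, 3 to 7 higher and 0 lower UDP-glycosyltransferases and 5 to 13 higher and 2 lower peroxidases. The same fits called 3 to 4 higher and 0 to 1 lower ABC transporters, 1 to 3 higher and 0 lower phenylpropanoid genes and 15 to 29 higher and 6 to 20 lower cytochromes P450.

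ER chaperones and foldases had the highest share of calls among the lists that rose: 19 of 26 were higher and 0 lower. Changes were small, with a median of 0.66, and 4 to 14 were higher with 1 library left out. ERDJ3A (ATERDJ3A), an ER co-chaperone, had 11.4 and 15 CPM in DIF-OX2 on Dex, against 3.60 and 3.61 CPM in Col-0 on Dex. IRE1A, a sensor of unfolded proteins, had 88.0 and 97.9 CPM in the induced line, against 36.9 and 42.2 CPM in the wild type. Of 35 proteasome subunits 5 rose (14.3%, beside 11.6% of all tested genes) and 0 fell, with RPT5B kept. Of 20 autophagy genes 1 rose, ATG8B. Plant U-box ligases gave 3 of 21 higher (14.3%) and 2 lower (9.52%), near the shares of all tested genes. PUB54 had 26.4 and 24.1 CPM in DIF-OX2 on Dex, against 0.190 and 0.272 CPM in Col-0 on Dex, and PUB26 fell by 1.16 on the log2 scale. Of 175 tested F-box genes 13 rose and 12 fell, and the kept one was AT1G53790 (log2 fold change 1.26, adjusted p = 0.0018). A further 311 of 629 F-box genes had no count in the 4 libraries. With 1 library left out, the fits called 1 to 3 higher and 0 lower proteasome subunits, 1 to 2 higher and 1 lower U-box ligases and 1 to 6 higher and 1 to 6 lower F-box genes.

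Ethylene is a gaseous hormone of stress and senescence. Of 24 tested genes 9 rose and 1 fell (median 0.39), and 6 to 7 were higher with 1 library left out. ACS7, an enzyme of the committed step, had 9.48 and 9.17 CPM in DIF-OX2 on Dex, against 0.190 and 0.681 CPM in Col-0 on Dex (log2 fold change 4.29, which was 5.55 with wild-type replicate 2 left out). ACO1 (AT2G19590), which makes ethylene itself, had 74.2 and 97.9 CPM in the induced line, against 20.7 and 16.1 CPM in the wild type. ACS6 fell by 1.11 on the log2 scale. Of 23 abscisic acid genes 3 were higher and 3 lower (13% each), near the 11.6% and 10.4% of all tested genes. CYP707A1, which breaks the hormone down, rose by 3.38 and ABA3 by 0.78, while the cold- and abscisic-acid-induced COR15A fell by 2.46 and KIN1 fell by 2.39. Late embryogenesis abundant proteins gave 9 of 55 higher and 2 lower. AT2G03850 of this family had 88 and 232 counts in DIF-OX2 on Dex and 0 and 2 counts in Col-0 on Dex, a ratio of 157 (95% counting interval 43 to 1300), and AT5G53820 rose by 3.62 (4.33 with wild-type replicate 2 left out). The 4 fits that each lack a library called 2 to 3 higher and 2 to 3 lower abscisic acid genes and 5 to 10 higher and 1 to 2 lower late embryogenesis genes.

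Auxin controls cell expansion and patterning, and 11 of its 27 tested genes fell while 2 rose (median -0.45, with 2 to 8 lower when 1 library was left out). SHY2 (IAA3), a repressor of auxin response, had 27.0 and 19.5 CPM in DIF-OX2 on Dex, against 85.4 and 106 CPM in Col-0 on Dex. PIN4, an auxin efflux carrier, had 72.7 and 59.8 CPM in the induced line, against 134 and 130 CPM in the wild type. Of 53 SAUR genes, which act in cell expansion, 19 fell and 5 rose (median -0.63). AT1G29500 fell by 2.86 and SAUR29 fell by 2.33, while SAUR36, linked to leaf senescence, rose by 2.55. Near-identical SAUR genes may share reads. Among light-signalling genes 8 of 37 fell and 1 rose. PIF4, a growth-promoting factor, had 45.5 and 28.0 CPM in DIF-OX2 on Dex, against 132 and 162 CPM in Col-0 on Dex, and PHOT1 fell by 1.35. Across the leave-out fits there were 1 to 3 higher and 7 to 14 lower SAUR genes and 0 higher and 2 to 5 lower light-signalling genes.

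Cytokinin genes gave 3 of 25 higher (12%) and 4 lower (16%), beside 11.6% and 10.4% of all tested genes. CKX3, a cytokinin-degrading oxidase, rose by 4.72 on the log2 scale (5.33 with wild-type replicate 1 left out). Gibberellin and brassinosteroid synthesis gave 2 of 21 higher (9.52%) and 4 lower (19%). CYP90D1 was higher and BAS1, which inactivates brassinosteroids, was lower. Of 34 meristem and organ growth genes 7 fell and 1 rose, and GRF4, a growth-regulating factor, fell by 1.57. Of 26 genes of vegetative phase change and flowering 8 fell and 0 rose (median -0.53). SNZ had 4.52 and 4.25 CPM in DIF-OX2 on Dex, against 30.4 and 20.8 CPM in Col-0 on Dex, and TOE3 fell by 2.12. Both encode AP2-type repressors of flowering. The flowering activator SOC1 (AGL20) averaged 14.8 CPM in DIF-OX2 on Dex, against 39.97 CPM in Col-0 on Dex. Fits lacking 1 of the libraries gave 1 to 3 higher and 0 to 2 lower cytokinin genes, 1 to 2 higher and 2 to 4 lower gibberellin and brassinosteroid genes and 0 higher and 2 to 5 lower meristem genes. The same fits called 0 higher and 4 to 9 lower phase change genes.

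Cell-cycle and clock genes gave few calls in the fit of all 10 libraries. Of 22 DNA replication genes 1 rose, and MCM2 had 25.4 and 25.1 CPM in DIF-OX2 on Dex, against 31.8 and 30.4 CPM in Col-0 on Dex (adjusted p = 0.24). Of 29 mitosis genes 1 rose and 2 fell, and CYCA1;1 had an adjusted p of 0.39. Of 19 clock genes 1 rose, and CCA1 had 195 and 133 CPM in the induced line, against 294 and 246 CPM in the wild type (adjusted p = 0.66). The time of day of harvest is not given in the labels. CCA1 had 71 and 2797 counts in the dal-2 libraries, which entered the estimate of the spread. With only the 4 libraries of the comparison, 3 clock genes were called higher and 6 lower. For DNA replication these counts were 1 and 7, and for mitosis 2 and 6. Cellulose and wall synthesis gave 1 of 21 higher, and CESA1 was not called (adjusted p = 0.53). Of kept genes EXT4, an extensin, gained the most CPM. It had 2938 and 3226 CPM in DIF-OX2 on Dex, against 372 and 366 CPM in Col-0 on Dex. The extensin-like AT2G43150 rose by 2.25 and the glycine-rich GRP-3 by 2.01 on the log2 scale. Of 26 expansins 6 rose and 4 fell. EXPA19 had 166 and 429 counts in DIF-OX2 on Dex and 0 in both Col-0 on Dex libraries, at least 194-fold higher, and EXPA9 rose by 1.12. Of 29 xyloglucan endotransglucosylases 2 rose, among them XTH19 (2.57). With only the 4 libraries of the comparison, 4 of this family were called higher and 6 lower. Of 24 cuticle genes 4 fell and 1 rose, and with only those 4 libraries 10 fell and 1 rose. With 1 library left out, the fits called 0 higher and 0 to 2 lower mitosis genes, 2 to 3 higher and 0 to 4 lower expansins and 1 to 2 higher and 0 lower xyloglucan endotransglucosylases. The same fits called 0 higher and 1 to 4 lower cuticle genes.

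Among phosphate, nitrate, sulfate and iron genes more were called higher than lower. Phosphate starvation genes gave 9 of 20 higher and 0 lower (median 0.72). SPX1, a phosphate sensor, had 39.1 and 59.0 CPM in DIF-OX2 on Dex, against 8.73 and 7.83 CPM in Col-0 on Dex, but with 1 library left out the count of higher genes ran from 1 to 6. Nitrate genes gave 7 of 26 higher and 2 lower, with a median of -0.06. Their summed level was 8352 and 8465 CPM in DIF-OX2 on Dex, against 9983 and 10130 CPM in Col-0 on Dex. With only the 4 libraries of the comparison, 8 nitrate genes were called higher and 6 lower. NRT1.8 rose by 2.56, and the cytosolic glutamine synthetase AT5G37600 (named GSR 1 in the annotation) had 578 and 766 CPM in the induced line, against 85.8 and 91.2 CPM in the wild type. Sulfate genes gave 6 of 25 higher and 2 lower, with LSU1 rising by 2.83. Iron genes gave 7 of 24 higher and 2 lower. FRO3, a ferric reductase, rose by 1.51, and the ferritins FER4 and FER3, which store iron, fell by 1.48 and fell by 1.18. FER4 had 25.5 and 20.95 CPM in DIF-OX2 on Dex, against 64.2 and 65.0 CPM in Col-0 on Dex. In Col-0 without Dex it had 27.96 and 40.9 CPM. For FER3 the values were 45.7 and 43.7, 93.05 and 108.6, and 49.8 and 63.1 CPM, in the same order. Aquaporins gave 3 of 29 higher and 5 lower (median -0.59). With only the 4 libraries of the comparison, 4 aquaporins were called higher and 16 lower. NIP1;2 rose, and TIP2;3 had 3.55 and 5.71 CPM in DIF-OX2 on Dex, against 25.3 and 26.9 CPM in Col-0 on Dex. PIP2E fell by 1.42. The 4 fits that each lack a library called 5 to 7 higher and 0 lower nitrate genes, 1 to 4 higher and 0 lower sulfate genes and 1 to 3 higher and 2 to 3 lower iron genes. The same fits called 1 to 3 higher and 2 to 4 lower aquaporins.

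Sugar transport and sucrose metabolism gave 8 of 27 genes higher and 2 lower, with 5 to 8 higher when 1 library was left out. GPT2, which moves glucose 6-phosphate into plastids, had 585 and 575 counts in DIF-OX2 on Dex and 1 and 4 counts in Col-0 on Dex (log2 fold change 7.88, which was 8.86 with wild-type replicate 2 left out). The sugar transporter gene MSS1 had 59.2 and 83.9 CPM in the induced line, against 5.79 and 6.54 CPM in the wild type. PCK1, the first enzyme of gluconeogenesis from stored lipid, had 853 and 918 CPM in DIF-OX2 on Dex, against 266 and 293 CPM in Col-0 on Dex. Starch genes gave 2 of 28 higher and 5 lower, none kept, and the phosphoglucomutase AT5G51820 was not called (adjusted p = 0.11). Lipid genes gave 3 of 17 higher and 6 lower, with PES2 higher and the plastid desaturase FAD8 lower. Across the leave-out fits there were 0 to 1 higher and 0 to 4 lower starch genes and 1 higher and 1 to 5 lower lipid genes.

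Carotenoid and tocopherol synthesis had 12 of 25 genes lower and 1 higher (median -0.79, 2 to 12 lower with 1 library left out). DXR, of the plastid isoprenoid pathway, had 129 and 113 CPM in DIF-OX2 on Dex, against 216 and 234 CPM in Col-0 on Dex, and CDPMEK of the same pathway fell by 0.79. CCD8, the exception, acts in strigolactone synthesis and rose by 3.64. Of the 8 plastid ribosomal proteins that the family pattern matched, 7 fell and 0 rose (median -1.06, 4 kept falls). The pattern may miss others. PSRP6 had 85.6 and 72.4 CPM in the induced line, against 175 and 203 CPM in the wild type, and PRPL35 fell by 1.16. Cytosolic ribosomal proteins gave 3 of 85 higher and 3 lower, and AT4G26060 was the kept rise. Of 256 pentatricopeptide repeat genes, many of them organelle RNA factors, 26 fell (10.2%, near the 10.4% of all tested genes) and 2 rose, with a median of -0.07, and AT5G10690 and MEE40 were kept. Among kept genes, the largest losses in CPM were those of PGK1, which had 695 and 562 CPM in DIF-OX2 on Dex, against 1247 and 1446 CPM in Col-0 on Dex, then AT4G01150, ROC4, AT3G11630, AT1G66100, SSR16, emb1473 and CYP38. Kept genes that fell took 1.67% and 1.39% of counts in DIF-OX2 on Dex, against 3.05% and 3.01% in Col-0 on Dex, whereas all genes called lower took 14.3% and 11.5%, against 24.2% and 24.8%. Of the 8 genes AT1G66100, a thionin, had the largest fold, with 43.6 and 26.5 CPM in the induced line against 361 and 314 CPM in the wild type. Fits lacking 1 of the libraries gave 1 to 2 higher and 0 lower cytosolic ribosomal proteins and 0 to 1 higher and 2 to 18 lower pentatricopeptide repeat genes.

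The largest fold changes given next are those of kept genes with at least 10 counts in each of the 4 libraries, a limit that leaves out genes such as GPT2. BCA3, a carbonic anhydrase, had 354 and 501 CPM in DIF-OX2 on Dex, against 2.37 and 3.07 CPM in Col-0 on Dex (log2 fold change 7.28, SE 0.27, edgeR adjusted p = 2.1e-05). AT2G05510, a glycine-rich protein gene, had 2231 and 2282 CPM in the induced line, against 14.8 and 15.5 CPM in the wild type. CYP702A2 rose by 5.94, GAD4, a glutamate decarboxylase, by 5.90, CYP94B3, which oxidises a jasmonate conjugate, by 5.85 and BGLU45 by 5.84 on the log2 scale. CYS2, a cysteine protease inhibitor below that limit, had 677 and 792 CPM in DIF-OX2 on Dex, against 0.569 and 0.885 CPM in Col-0 on Dex. FBA5, an aldolase, had 18.2 and 6.98 CPM in the induced line, against 250 and 276 CPM in the wild type (log2 fold change -4.41, SE 0.49, edgeR adjusted p = 0.00102). It was -5.25 with induced replicate 1 left out. AT1G13650 fell by 3.82 (4.72 with induced replicate 1 left out, 3.23 with replicate 2 left out), AT3G46370 fell by 3.65, AT1G14250 fell by 3.56, AT4G13575 fell by 3.48 and PGL5 fell by 3.45. Groups did not overlap for any of these 13 genes. The same held for all 4549 called genes and for 14434 of the 20681 tested.

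**Figure D2:**
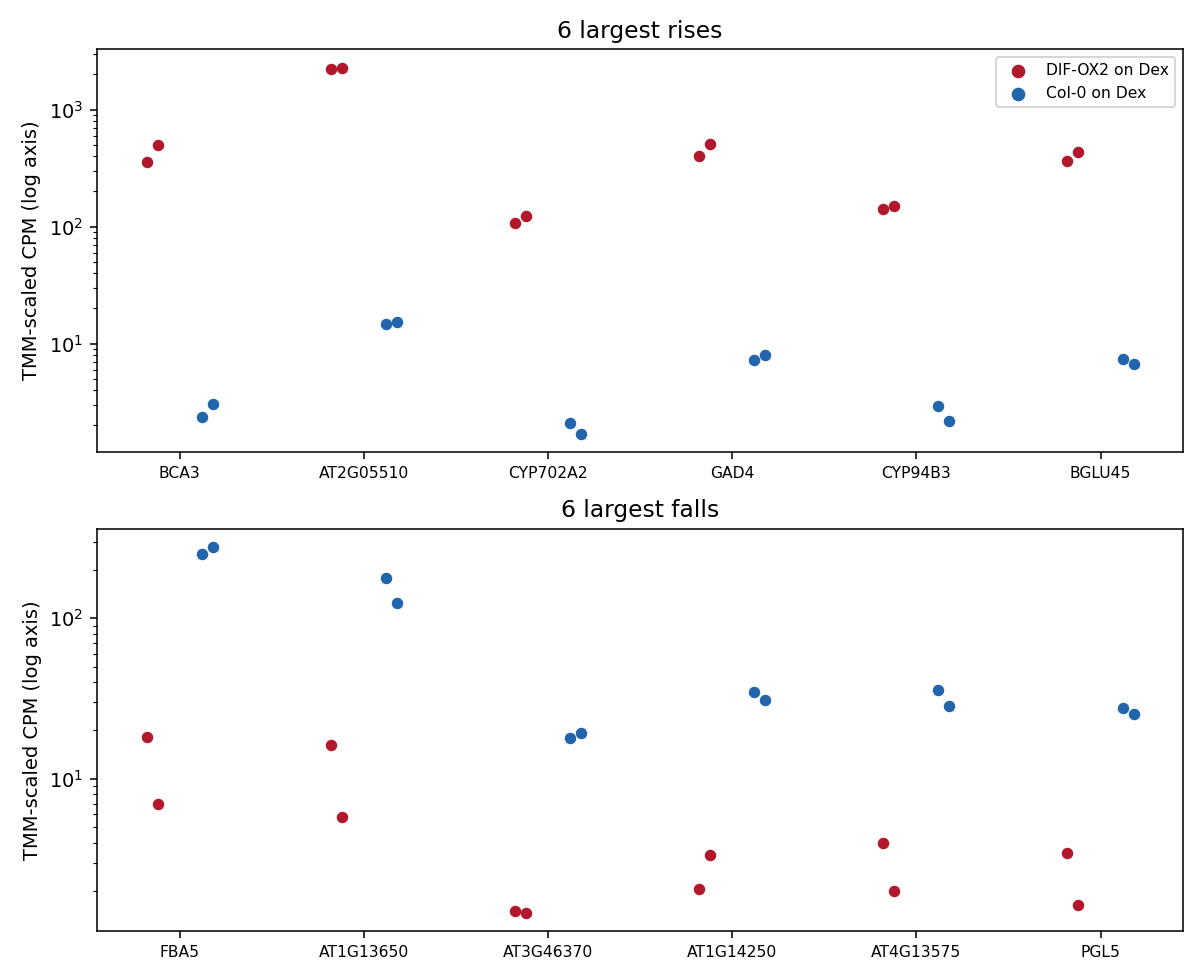
TMM-scaled CPM on a log axis in each library for the 6 largest kept rises and 6 largest kept falls with at least 10 counts in each library; each point is a library, DIF-OX2 on Dex left and Col-0 on Dex right. BCA3 lies at 354 and 501 CPM in the induced line, against 2.37 and 3.07 CPM in the wild type. No gene's groups overlap, which holds for all 4549 called genes and 14434 of the 20681 tested.

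Markers of cell types did not move as one. Of 18 trichome and pavement cell markers 7 fell and 0 rose (median -0.99), with a summed level of 447 and 310 CPM in DIF-OX2 on Dex, against 651 and 665 CPM in Col-0 on Dex. GL2, a regulator of trichomes, had 5.71 and 7.53 CPM in the induced line, against 17.2 and 20.9 CPM in the wild type. In whole seedlings fewer cells of a type and less RNA per cell cannot be told apart. Of 17 guard cell and stomatal lineage markers 3 fell and 1 rose: SPCH, which starts the lineage, had 25.96 and 30.7 CPM in DIF-OX2 on Dex, against 6.36 and 6.40 CPM in Col-0 on Dex, while KAT1 fell by 1.94 and SCRM2 fell by 1.44. Root hair markers gave 5 of 13 higher, summing to 191 and 223 CPM in the induced line and 118 and 120 CPM in the wild type, with LRX2 and PRP1 kept. Endodermis markers gave 0 of 10 calls (CASP1 adjusted p = 0.22) and other root markers 1 of 13, the root aquaporin gene TIP2;3. Xylem and phloem markers gave 2 of 15 higher (13.3%) and 1 lower (6.67%), beside 11.6% and 10.4% of all tested genes. NAC101 of this list was not called (edgeR adjusted p = 0.32). Seed markers, of which 4 of 19 could be tested and 6 had no count in the 4 libraries, gave 0 calls (CRA1 adjusted p = 0.20), and floral markers gave 1 of 5 higher and 1 lower (PI adjusted p = 0.77). The part of a shift in tissue makeup in the results above was not tested. With 1 library left out, the fits called 0 higher and 3 to 7 lower trichome and pavement markers, 1 higher and 2 to 4 lower guard cell markers and 2 to 5 higher and 0 lower root hair markers.

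**Figure D3:**
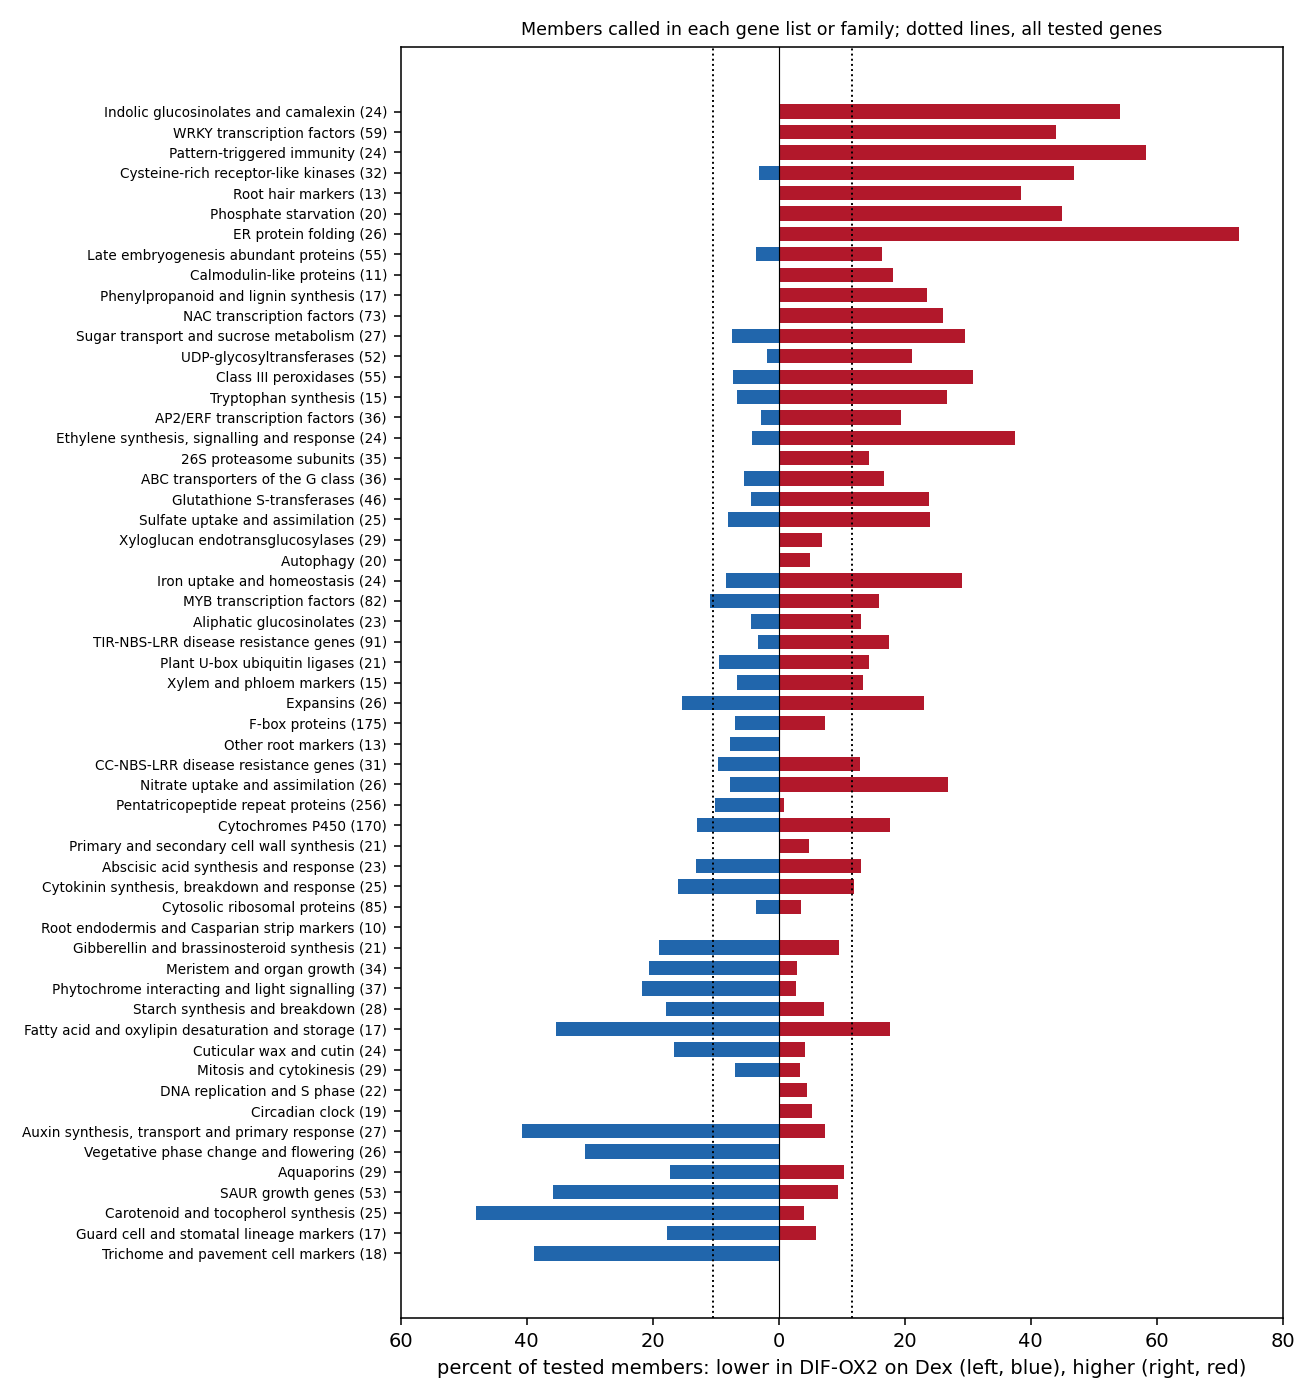
Percent of tested members called lower (left, blue) and higher (right, red) in DIF-OX2 on Dex for each list or family with at least 10 tested members, whose number is in parentheses, ordered by median fold change. Dotted lines mark the 11.6% higher and 10.4% lower of all tested genes, and ER protein folding reaches furthest right with 19 of 26.

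Between DIF-OX2 and Col-0 without Dex 2 of 20681 genes were called (0.00967%), both lower in DIF-OX2: CYP78A5 and CYP82C4. At an unadjusted p under 0.05 there were 262 genes. CYP82C4 had 20.9 and 26.7 CPM in DIF-OX2, against 128 and 109 CPM in Col-0, and on Dex it was not called (39.7 and 52.5 CPM in DIF-OX2, against 61.3 and 49.8 CPM in Col-0). The difference between both contrasts was called for 1309 genes (6.33%), and 901 of the 1058 kept genes were among them with the same sign. Kept genes were chosen by the contrast on Dex, which is part of that difference. Their share is therefore not independent of the choice. Of the kept rises, 9 had at most 3 counts in all over the 6 libraries of Col-0, Col-0 on Dex and uninduced DIF-OX2. Named kept genes without a called difference between the contrasts included FRK1 (edgeR interaction adjusted p = 0.275), ACS6 (0.271) and GPT2 (0.988). ACS6 had 82.5 and 72.7 CPM in Col-0 without Dex, against 40.1 and 45.3 CPM in Col-0 on Dex. GPT2 had at most 1 count in a library without Dex. For EXPA19 and AT4G11340, with 0 counts in Col-0 and DIF-OX2 without Dex, the difference could not be tested. Left-out libraries moved the 1309 to between 190 and 1200.

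**Figure D4:**
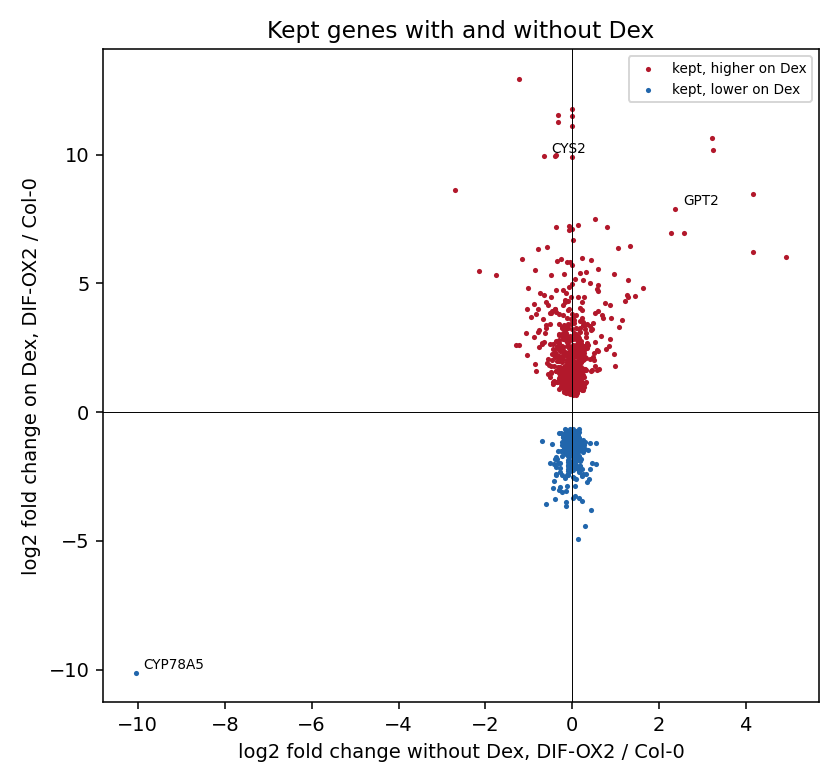
Log2 fold change of DIF-OX2 over Col-0 on Dex (vertical) against that without Dex (horizontal) for the 1058 kept genes; each point is a gene. Most points lie near 0 on the horizontal axis, with a median distance of 0.11, and CYP78A5, with no count in DIF-OX2, has fitted values near -10 on both that depend on the prior count; values far from 0 on the horizontal axis come from genes with few counts without Dex.

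CYP78A5 is the exception. This cytochrome P450, known as a promoter of organ growth, had 0 counts in both libraries of DIF-OX2 on Dex and both of DIF-OX2 without Dex, against 118 and 159 counts in Col-0 on Dex and 90 and 102 counts in Col-0. On Dex it was at least 94.3-fold lower, with a floor of 3 counts over the group (edgeR adjusted p = 9.32e-05). With no count in any DIF-OX2 library, a difference between the contrasts with and without Dex could not be tested. Its annotated neighbours AT1G13690, PGL1, AT1G13730 and AFP2 were not called, with adjusted p between 0.304 and 0.943 on Dex. AT1G13680 and the tRNA gene AT1G13720 had 0 to 3 counts in these libraries. Further off on chromosome 1 lies AT1G13650 (4680290 to 4682382, with CYP78A5 at 4702657 to 4704694). Its log2 fold change was -3.82 on Dex and 0.43 without Dex. Whether the line carries a change at the CYP78A5 locus was not tested.

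**Figure D5:**
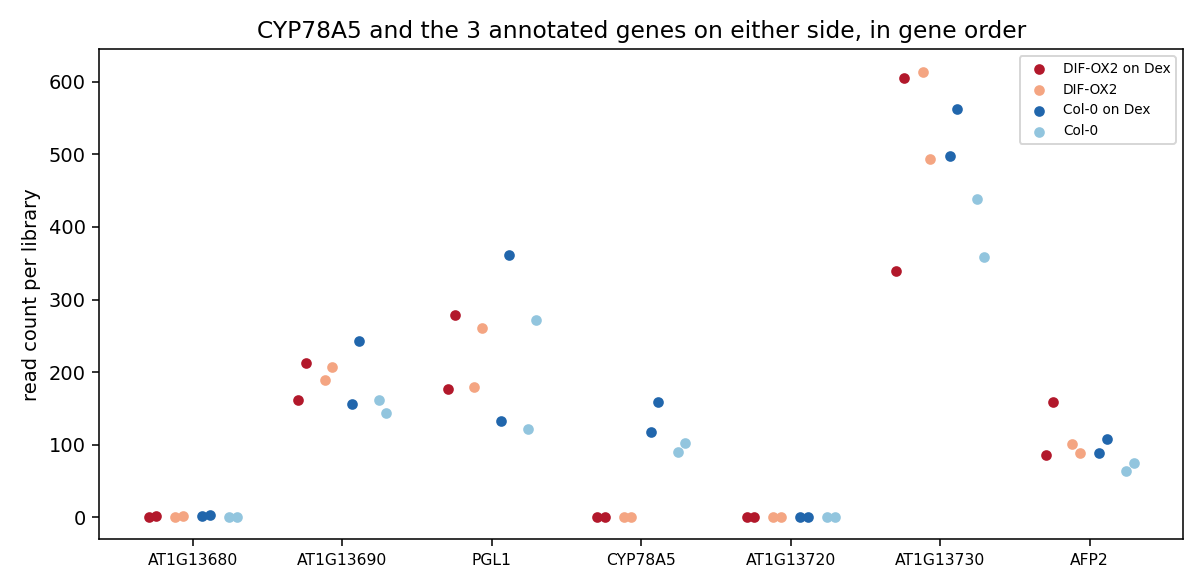
Read counts per library for CYP78A5 and the 3 annotated genes on either side, in gene order; each point is a library of DIF-OX2 on Dex, DIF-OX2, Col-0 on Dex or Col-0. CYP78A5 has 0 counts in the 4 DIF-OX2 libraries and 90 to 159 in the Col-0 libraries.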

How the data were processed

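RNA sequencing read counts per gene were analysed. Per the submitters' processing notes, the authors used Trimmomatic, TopHat2 and HTSeq with the TAIR10 build; versions, strand setting and treatment of multiply aligned reads are not given in the sources used here. The deposited values are raw counts, and 0 columns belonged to no sample. Libraries were prepared with a TruSeq kit, per the labels' protocols.

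Gene names came from TAIR10.1 (32835 of 33602 genes). In edgeR 4.0.16 (R 4.3.3), genes passing filterByExpr (20681) were TMM-scaled, and all 10 libraries entered a quasi-likelihood fit in which each group had its own coefficient (residual df 5, prior df 3.27, common biological CV 0.188). Adjustment was by Benjamini-Hochberg over all tested genes, with calls at an adjusted p of 0.05. CPM values are TMM-scaled. The script was tested on simulated data.

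The comparison, lists and families were chosen with earlier results of these data known. Of 805 listed symbols 781 were matched. Family patterns were corrected after the files had been opened. Named genes are, among kept genes, the 6 largest rises and falls with at least 10 counts per library, the 8 largest gains and losses in CPM, up to 2 rises and 2 falls per list, genes also called without Dex, and genes without counts in DIF-OX2; lists without a kept gene give their first tested member. Other genes named beside them were chosen after their values were seen. Alternatives were other scalings, filters and library sets, DESeq2 1.42.0, left-out libraries and a replicate block. Floors and intervals (3 counts, 95%) cover counting error only.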

Additional observations from a re-analysis of the deposited data

Results flagged for a closer look

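The difference between DIF-OX2 and Col-0 was not the same with and without Dex for 1309 genes (test of the interaction in edgeR, adjusted p of at most 0.05). Values here are the log2 fold change on Dex minus that without Dex. The genes below other than CYP82C4 were chosen by their change on Dex. That change is part of each value, so the sign largely follows from the choice. Among the genes with the largest fold changes or gains in CPM, the difference was positive for BCA3 (7.15), AT2G05510 (7.31), CYP702A2 (6.19), GAD4 (5.48), CYP94B3 (6.20), BGLU45 (5.88), EXT4 (3.26), GRP-3 (2.47), AT2G43150 (2.15), CYS2 (10.58), CCoAOMT1 (1.48), PCK1 (1.45) and GSR 1 (2.86). It was negative for FBA5 (-4.70), AT1G13650 (-4.24), AT3G46370 (-3.50), AT1G14250 (-2.96), AT4G13575 (-3.35), PGL5 (-3.67), PGK1 (-1.10), AT4G01150 (-1.30), ROC4 (-1.20), AT3G11630 (-1.17), AT1G66100 (-3.33), SSR16 (-1.17), emb1473 (-1.05) and CYP38 (-1.38). CYP82C4 was lower in DIF-OX2 without Dex and was not called on Dex, so its difference was positive (2.05). With 2 libraries a group no library could be examined as an outlier.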

How the results depend on the processing

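Genes called between DIF-OX2 on Dex and Col-0 on Dex numbered 4549, and 6892 with only these 4 libraries, 7065 without both dal-2 libraries and 1343 to 3303 with 1 library left out; other scalings, filters, the replicate block (5008) and DESeq2 (4382) stayed within 1.5 times. Without Dex the 2 calls became 0 with only the 4 libraries (412 genes at an unadjusted p under 0.05), 1 with the replicate block, 6 with DESeq2 and 0 to 1 with 1 library left out. The 1309 interaction calls became 3681 without dal-2 (also with only the libraries concerned), 1989 with DESeq2 and 190 to 1200 with 1 library left out. Named genes that were called had the same sign in each setting that tested them. Of those not called, 4 changed sign with 1 library left out: CRA1 ranged from -4.03 to 3.44, PI from -0.051 to 1.105, AT1G13690 from -0.296 to 0.144 and PGL1 from -0.478 to 0.52 on the log2 scale. PGL1 was also 0.045 with the replicate block, against -0.06 in the fit reported. The replicate numbers are not stated to pair samples: across 20681 genes the differences between replicates 1 and 2 in both groups correlated at 0.0973. When 1 library is left out, the spread of its partner is taken from the remaining groups. The causes were not tested. Having 2 libraries a group limits the precision of every value.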
